A study of Mus musculus with 6 samples.

Results

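The 10 genes described here mark macrophages and the complement protein C1q: C1qa, C1qb, C1qc, Csf1r, Lyz2, Mrc1, Cd68, Adgre1, Cd163 and Cd14. They were chosen by name from measured values of these same libraries, 10 of the 16759 genes in the table, and no expression filter was applied to them. The libraries came from hind leg muscle of male C57BL/6J mice that were 8 weeks old at the start. The 3 Con mice were not trained. The 3 EX mice ran on a treadmill for 60 min a session, 5 days a week, for 6 weeks and 22 km in all, and muscle was taken 24 h after training ended. Each mouse gave 1 library. The piece of muscle was the size of a soybean, taken after perfusion with PBS and removal of the fat between the muscles, and the sources used here do not name the muscle. No gene was altered in either group.

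Macrophages live in the connective tissue between muscle fibres, where they take up dead cells and debris and help to repair damage. Their survival depends on the CSF1 receptor, which binds CSF1 and IL-34. Unlike most complement proteins, which the liver makes, C1q is made largely by macrophages and dendritic cells. It starts the classical complement pathway by binding antibody or dying cells and then activating the proteases C1r and C1s. Resident macrophages of many tissues carry scavenger and lectin receptors, while cells recently derived from blood monocytes carry more of the monocyte genes.

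The libraries held 13845362 to 16240431 counts, so that 1 read was worth 0.0626 to 0.0712 CPM (a count scaled to a fixed library total). The 10 genes together took 698 to 744 counts per library in Con (0.0046% to 0.00504% of the total) and 1269 to 1374 per library in EX (0.00788% to 0.00846%). Genes of muscle fibres summed to 246000 to 263000 TPM, a unit corrected for gene length, in the 6 libraries, as the tissue label says, with 5 of 12 higher in EX (Pvalb, Mylpf and Acta1 among them) and 3 lower (Myh2 by -0.75) in edgeR, while limma on TPM called 0 higher and 3 lower. Of 16716 genes tested by edgeR with Benjamini-Hochberg adjustment, 12.0% passed an adjusted p of 0.05, with 6.08% higher and 5.96% lower in EX. With limma on TPM, which follows the total of each library, 20.9% of the called genes were higher in EX, against 50.5% in edgeR with TMM scaling. The direction of the 9 genes other than Cd14 was the same on both scales.

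All 10 genes had a higher fitted level in EX than in Con, by 0.08 to 1.26 on the log2 scale (that of Cd14 was -0.06 without Con replicate 3), with a median of 0.76 beside a median of 0 over all genes tested. In 9 of the 10 the 3 EX values lay above the 3 Con values. Of all genes tested, 13.4% had this pattern. The adjusted p passed 0.05 for 6 of the 10 genes, C1qa, C1qb, C1qc, Csf1r, Lyz2 and Mrc1. Because the genes were chosen with this contrast known, nothing is read from either count, and the values below describe the genes. In a piece of whole muscle, more cells of a type and more RNA per cell cannot be told apart. The error between mice was small: the coefficient of variation of the CPM of a gene was 5.73% to 22.1% in Con and 3.53% to 20.9% in EX, where counting error alone gives 6.01% to 24.5% and 4.4% to 23.4%.

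**Figure D1:**
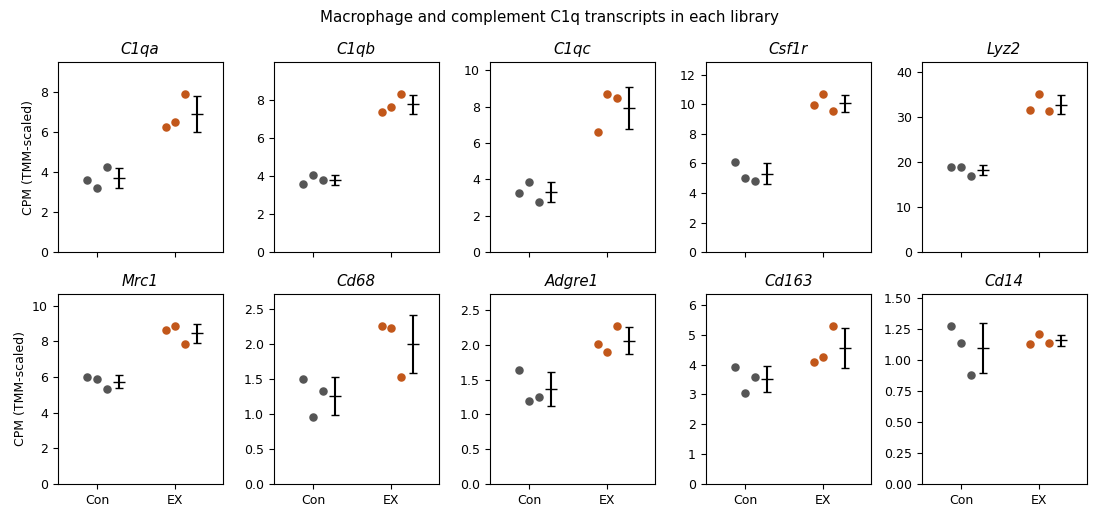
CPM of each gene in every library, with TMM scaling. Points are mice, grey for Con and orange for EX, and the bar beside them is the mean with its SD (n = 3). The vertical axis differs between panels. Only the groups of Cd14 overlap.

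C1q is built from 3 kinds of chain, and their genes C1qb, C1qc and C1qa lie next to each other on chromosome 4. The 250 bases before the start of C1qb (chr4:136886201-136886450, minus strand) and of C1qc (chr4:136892915-136893164, minus strand), from RefSeq on GRCm38.p6, are shown because these genes had the largest fold changes of the 10, and those of Mrc1 (chr2:14229164-14229413, plus strand) because its change was smaller. Capitals mark GAGGAA, the core recognised by the macrophage factor PU.1 (gene Spi1), on the printed strand, or TTCCTC, which is its other strand.

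C1qb: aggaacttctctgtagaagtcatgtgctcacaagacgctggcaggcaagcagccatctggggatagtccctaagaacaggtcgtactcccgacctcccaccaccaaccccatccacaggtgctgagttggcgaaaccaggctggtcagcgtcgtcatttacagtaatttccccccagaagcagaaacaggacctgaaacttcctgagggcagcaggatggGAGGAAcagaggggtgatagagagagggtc

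C1qc: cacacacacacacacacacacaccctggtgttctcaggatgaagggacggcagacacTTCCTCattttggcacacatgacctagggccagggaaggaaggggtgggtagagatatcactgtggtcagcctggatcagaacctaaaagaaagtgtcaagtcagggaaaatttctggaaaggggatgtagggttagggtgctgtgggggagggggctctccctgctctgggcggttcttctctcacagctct

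Mrc1: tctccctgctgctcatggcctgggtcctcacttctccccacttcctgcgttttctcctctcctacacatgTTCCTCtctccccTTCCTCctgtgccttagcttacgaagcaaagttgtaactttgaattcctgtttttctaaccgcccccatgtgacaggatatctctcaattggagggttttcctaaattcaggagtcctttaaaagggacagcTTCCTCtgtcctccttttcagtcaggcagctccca

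The motif stood 1 time before C1qb, with its first base 30 bases upstream of the start, 1 time before C1qc and 3 times before Mrc1. Promoters were at hand for 6 of the 10 genes, of which 4 held it (also Cd68) and 2 did not (Lyz2 and Cd163). Of 32851 windows of this length, 23.3% held it. A match is a description of the letters only.

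C1qa (Gene ID 12259) encodes the A chain. Its CPM was 3.63, 3.23 and 4.26 in the Con libraries and 6.28, 6.53 and 7.91 in the EX libraries. The lowest EX value was above the highest Con value, and the fitted change was 0.89 (SE 0.14), a fold of 1.86 (95% interval 1.52 to 2.27). C1qb (12260), the B chain, had a CPM of 3.56, 4.06 and 3.76 in Con and 7.35, 7.61 and 8.29 in EX. The libraries of each group were close to each other and far from the other group, with a change of 1.03 (SE 0.13), a fold of 2.04 (1.69 to 2.45). C1qc (12262), the C chain, had a CPM of 3.27, 3.87 and 2.76 in Con and 6.6, 8.69 and 8.48 in EX. It had the largest change of the 10 genes, 1.26 (SE 0.15), a fold of 2.4 (1.96 to 2.94).

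On a scale per length, the C1q genes summed to 20.4, 21.8 and 21.3 TPM in the Con libraries, from 147, 176 and 172 counts. They summed to 37.7, 41.3 and 45.2 TPM in the EX libraries, from 322, 360 and 390 counts. Of this sum, C1qa took 34.4% ± 5.29 in Con and 30.5% ± 1.8 in EX (SD, n = 3), and C1qb took 34.1% ± 1.13 and 33.4% ± 1.65. C1qc took 32.3%, 35.8% and 26.6% in Con and 33.6%, 39.2% and 35.4% in EX. The shares of the groups overlapped for each chain, and no test was run on them.

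**Figure D2:**
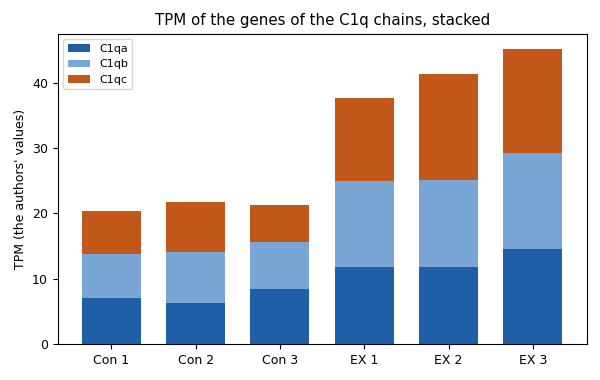
TPM of the genes of the C1q chains in each library, stacked, from the deposited values. The bars reach 20.4 to 21.8 TPM in Con and 37.7 to 45.2 TPM in EX, and each chain takes 26.6% to 39.5% of a bar.

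Csf1r (12978) encodes the receptor for CSF1 and IL-34. Its CPM was 6.12, 5.01 and 4.82 in Con and 9.93, 10.7 and 9.55 in EX, a change of 0.93 (SE 0.12) and a fold of 1.9 (1.61 to 2.25). All EX values were well above those of Con. Its ligands did not show this pattern. Csf1 fell, from a CPM of 21.0, 20.0 and 21.5 to 17.0, 16.6 and 19.0, by 0.25 on the log2 scale (SE 0.08, edgeR adjusted p = 0.022). Il34 had a difference of -0.11 (SE 0.13, adjusted p = 0.62) and its groups overlapped. In TPM means, both ligands were above the receptor in either group: Csf1 at 8.3 in Con and 6.7 in EX, Il34 at 7.96 and 6.9, and Csf1r at 2.22 and 3.94. The call of Csf1 was made in neither DESeq2 nor limma.

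Lyz2 (17105) encodes lysozyme, which breaks bacterial cell walls and is made by macrophages, monocytes and neutrophils. It was the most abundant of the 10 genes per length, at 36.8 ± 1.76 TPM in Con and 61.9 ± 3.18 TPM in EX (SD, n = 3). Its CPM was 18.8, 18.8 and 17.0 in Con and 31.5, 35.1 and 31.4 in EX. With 264 to 554 counts per library it had the narrowest interval, a change of 0.85 (SE 0.07) and a fold of 1.8 (1.63 to 1.99).

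Mrc1 (17533) encodes the mannose receptor and Cd163 (93671) the scavenger receptor for haemoglobin bound to haptoglobin, both carried by many resident macrophages. The CPM of Mrc1 was 5.98, 5.89 and 5.32 in Con and 8.61, 8.88 and 7.84 in EX, a fold of 1.47 (1.25 to 1.74). The groups did not overlap, but the step was smaller than that of Csf1r, which had a similar CPM in Con. The CPM of Cd163 was 3.92, 3.04 and 3.57 in Con and 4.08, 4.25 and 5.31 in EX, a change of 0.38 (SE 0.16). The highest Con library and the lowest EX library of Cd163 were nearly level.

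Adgre1 (13733), the gene of the adhesion receptor F4/80, and Cd68 (12514), a glycoprotein of late endosomes and lysosomes, had few reads. The CPM of Adgre1 was 1.64, 1.2 and 1.25 in Con and 2.01, 1.9 and 2.28 in EX, from 19 to 36 counts per library. Its change was 0.6, with a 95% interval of 0.14 to 1.07. The CPM of Cd68 was 1.49, 0.951 and 1.32 in Con and 2.26, 2.22 and 1.52 in EX. The third EX library was hardly above the first Con library, and the change was 0.68 (0.19 to 1.17).

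Cd14 (12475), the co-receptor that hands bacterial lipopolysaccharide to TLR4, was the exception. Its CPM was 1.28, 1.14 and 0.877 in Con and 1.13, 1.21 and 1.14 in EX, from 14 to 19 counts per library. The EX values lay within the Con range. The change was 0.08 with a 95% interval of -0.48 to 0.65, and at this depth a change of that size could not be shown in either direction. Of 8 genes that work with CD14, 1 was called in edgeR, beside 12.0% of all genes, and 0 in limma: Tirap, an adaptor of TLR4, with 0.26 (adjusted p = 0.0029). Tlr4 itself had a difference of 0.20 (adjusted p = 0.46). A mean of 1 FPKM, a unit corrected for gene length and library total, was reached by 7 of the 10 genes, and Adgre1, Cd163 and Cd14 were under it.

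Ordered by TPM in Con, Lyz2 stood first, then C1qa, C1qb and C1qc with overlapping values, then Csf1r at 2.22, Cd68 at 2.01 and Mrc1 at 1.7, where Cd68 overlapped both of its neighbours and Mrc1 was apart from Cd163. Cd163 at 1.28 and Cd14 at 1.22 overlapped, and Adgre1 was lowest at 0.7. In EX the order was the same except among the C1q genes, whose values again overlapped, and Csf1r, at 3.94, was apart from Cd68 at 3.01. Cd163 at 1.57, Cd14 at 1.2 and Adgre1 at 1.01 were lowest, as in Con, and none of these overlapped the next in EX.

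Whether a single factor describes all 10 genes was tested gene by gene. The common factor, the mean of the 10 log2 changes weighted by 1/SE squared, was 0.82, a fold of 1.76. It was 0.83 without Cd14 and 0.8 without Lyz2, which carries the most weight. Each gene was then tested in edgeR against the factor of the other 9, with p adjusted over all genes. A test against this factor calls 74.6% of all genes, since most genes did not change by it. Adjustment over all genes therefore raised the edgeR p little, from 0.02 to 0.028 for Mrc1 and from 0.012 to 0.017 for Cd14. It gives little guard against having tested 10 genes. Of the 10 genes, 4 departed from it. C1qc was 0.48 above it (95% interval 0.19 to 0.79, adjusted p = 0.0031), Mrc1 was below it with a difference of -0.29 (-0.53 to -0.05, adjusted p = 0.028), Cd163 with -0.47 (-0.79 to -0.15, adjusted p = 0.0075) and Cd14 with -0.75 (-1.31 to -0.17, adjusted p = 0.017). The factor was entered as a fixed value, so the intervals and p here and below leave out its own error, and the intervals are too narrow. These departures are not independent of the choice of genes, which was made with this contrast in view.

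Over the alternatives tried, the adjusted p of C1qc ranged from 0.0019 to 0.031, and C1qc passed in all 12. That of Mrc1 ranged from 0.0057 to 0.12 (past 0.05 in 9 of 11), Cd163 from 0.0037 to 0.057 (9 of 10) and Cd14 from 0.013 to 0.062 (8 of 10). Without Con replicate 2, Mrc1 gave an adjusted p of 0.089 and Cd14 0.056. Mrc1 gave 0.12 without EX replicate 3, Cd163 gave 0.057 without EX replicate 2, and Cd14 gave 0.062 without Con replicate 1.

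The other 6 genes were not called against the factor. The difference was 0.09 for C1qa, 0.23 for C1qb (-0.04 to 0.51), 0.13 for Csf1r, 0.05 for Lyz2 (-0.09 to 0.19), -0.14 for Cd68 (-0.64 to 0.37) and -0.22 for Adgre1 (-0.69 to 0.26). The interval of Lyz2 was narrow, while those of Cd68 and Adgre1 allowed departures as large as that of Cd163.

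**Figure D3:**
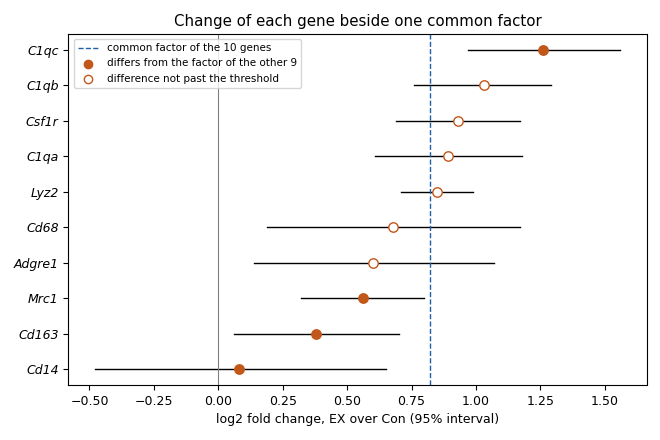
Change of each gene between Con and EX on the log2 scale, with its 95% interval. The dashed line is the common factor of 0.82, and filled points are the 4 genes called against the factor of the other 9: C1qc above it and Mrc1, Cd163 and Cd14 below it.

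The same counts can be written as shares within each library, which restates the departures without a scaling between libraries and is no further evidence for them. A share is lower in EX for any gene that gained less than the rest, also where its CPM was higher. As a share of the summed CPM of the 10 genes, Cd14 took 2.58%, 2.42% and 1.95% in Con and 1.42%, 1.38% and 1.36% in EX. Mrc1 took 12.0%, 12.5% and 11.9% in Con and 10.8%, 10.2% and 9.37% in EX. Cd163 took 7.88%, 6.45% and 7.95% in Con and 5.12%, 4.88% and 6.34% in EX. The groups did not overlap for these 3 genes. C1qc took 6.59%, 8.2% and 6.14% in Con and 8.27%, 9.97% and 10.1% in EX, with groups that just did not overlap. Lyz2 took 37.8%, 39.8% and 37.8% in Con and 39.5%, 40.3% and 37.5% in EX, and these overlapped.

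**Figure D4:**
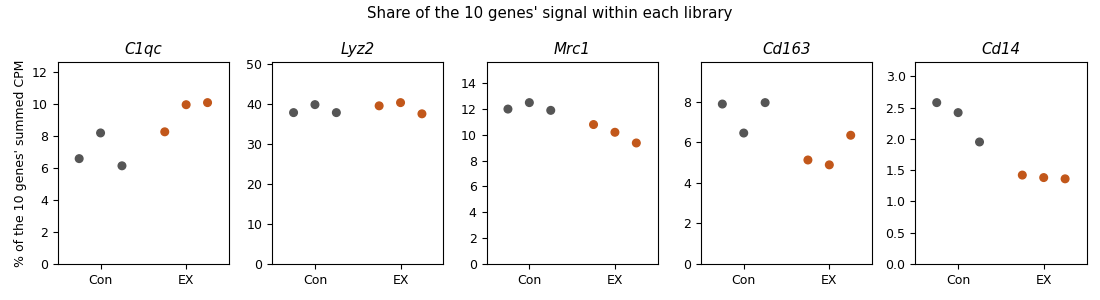
Share of the summed CPM of the 10 genes taken by 5 of them in each library, grey for Con and orange for EX. The EX points of Mrc1, Cd163 and Cd14 lie below the Con points, those of C1qc lie above, and those of Lyz2 overlap.

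Other macrophage genes were read from lists, whose counts stand beside the 6.08% of all genes called higher and the 5.96% called lower. Of 22 pan-macrophage genes, 7 were higher and 2 lower, with a median change of 0.66. DESeq2 called 4 of them higher and 1 lower, and limma 5 and 1. The summed TPM of the list did not follow these counts: it was 186 to 196 in Con and 168 to 189 in EX, and the groups overlapped. A few abundant genes carry this sum, while the median gene of the list was at 2.22 TPM, so the sum says little about most of the list. Trem2, a lipid receptor of macrophages, rose from 1, 3 and 2 counts to 9, 8 and 13 (adjusted p = 0.0069). Ctss, a lysosomal protease, rose by 1.20 (SE 0.16, adjusted p = 1.4e-07). Mpeg1, which makes a pore-forming protein, rose by 1.16 (SE 0.15, adjusted p = 1.2e-07), and Spi1, the gene of PU.1, by 1.15 (SE 0.34, adjusted p = 0.019). Mertk, a receptor for dying cells, fell by 0.42 (adjusted p = 0.033), and was chosen for mention after its values were seen.

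Of 12 genes of resident macrophages, 7 were higher in edgeR (median change 0.81), and 0 were lower, also at an unadjusted p under 0.05 and in DESeq2 and limma. Lyve1, a hyaluronan receptor of macrophages along vessels and of lymphatic endothelium, had the largest change among the 7 called, from a CPM of 1.49, 1.39 and 1.13 to 4.71, 3.87 and 3.92, by 1.64 (SE 0.20, adjusted p = 1.3e-08). Pf4 rose by 1.29 (SE 0.25, adjusted p = 1.5e-04) and Folr2, a folate receptor, by 1.11 (SE 0.24, adjusted p = 6.2e-04). Cbr2, a carbonyl reductase, rose by 0.85 (SE 0.07, adjusted p = 2.9e-13). Of 12 monocyte and recruited macrophage genes, 0 were called in edgeR, 0 in DESeq2 and 0 in limma, with 2 at an unadjusted p under 0.05 and a median of 0.08. Ace, the one most abundant per length and also made by endothelium, had a difference of 0.08 (adjusted p = 0.43). The monocyte genes were at lower levels, with a median of 0.593 TPM beside 3.09 TPM in the resident list, so changes in them could be missed. The difference between the resident and the monocyte lists was not tested.

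**Figure D5:**
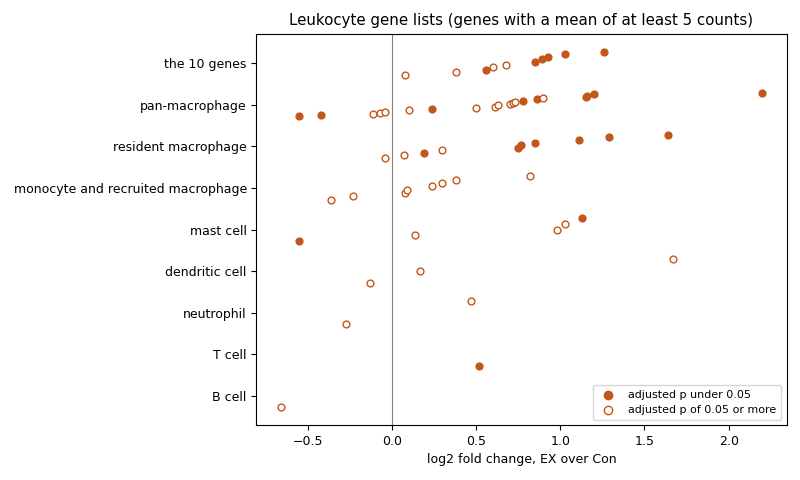
Log2 change of each gene of 9 lists, for genes with a mean of at least 5 counts. Filled points passed an adjusted p of 0.05. The 10 genes and the pan-macrophage, resident and monocyte lists lie mostly to the right of 0. The pan-macrophage and monocyte lists also have points to the left, and no point of the monocyte list is filled.

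The counts of other complement genes are read beside the 12.0% called over all genes. Of 25 proteases and components, 4 were higher and 0 lower in edgeR, with a median of -0.10, while 3 were lower at an unadjusted p under 0.05, 0 in DESeq2 and 1 in limma. C1ra and C1s1, the proteases that C1q activates, had differences of 0.05 (adjusted p = 0.79) and -0.14 (adjusted p = 0.061). Cfd, factor D of the alternative pathway and also a marker of fat cells, rose by 1.29 (SE 0.08, adjusted p = 6.1e-17). C7, part of the membrane attack complex, rose by 0.66 (adjusted p = 1.7e-05), Cfp, properdin, by 0.62 (adjusted p = 0.0040) and C3, the central component, by 0.28 (adjusted p = 3.1e-05). Of 13 regulators, Cd55 rose by 0.28 and Clu by 0.25, while Vtn fell by 0.26. Of 13 receptors for complement and C1q, 1 was called, Calr, with 0.21. Of 21 lysosome and engulfment genes, 5 were higher and 1 lower. Gpnmb rose by 0.74, Ctsh by 0.49, Grn, the gene of progranulin, by 0.36 and Abca1, a cholesterol exporter, by 0.29, with a median of 0.12 over the list.

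Markers of other cells moved too, with counts to be set beside the 12.0% called over all genes, and their part in the changes of the 10 genes was not tested. Of 10 adipocyte genes, 7 were higher and 1 lower. Retn rose by 1.55 and Cidec by 1.50, Lep went from 1, 2 and 0 counts to 6, 11 and 9, and the summed TPM was 2250 to 2430 in Con and 1810 to 1890 in EX, where Car3 and Fabp4 dominate it. Of 7 mast cell genes, Cpa3 (1, 0 and 3 counts against 5, 11 and 5) and Mcpt4 were higher and Kit was lower in edgeR, of which DESeq2 called 0, with a summed TPM of 3.77 to 4.87 in Con and 6.03 to 7.73 in EX. Of 12 fibroblast genes, 4 were higher, Col1a1 by 0.86, Col3a1 by 0.76, Col1a2 by 0.61 and Clec3b by 0.40, with sums of 1120 to 1160 TPM in Con and 1140 to 1170 TPM in EX. Of 10 endothelial genes, Cldn5 was higher and 4 were lower, among them Cdh5, Tie1 and Pecam1, with sums of 373 to 379 and 315 to 322 TPM. Of 10 satellite cell genes, Myog rose by 0.99 and Myod1 by 0.44, and Mymk went from 1, 0 and 1 counts to 24, 18 and 23.

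Neutrophil, B cell and NK cell genes had few counts, and in the lists that follow 0 or 1 gene was called, beside 12.0% of all genes, from which nothing is read about a list. Genes of neutrophils, which also make lysozyme, summed to 2.92 to 5.9 TPM in Con and 1.94 to 3.09 TPM in EX, with 0 of 9 called in edgeR, 0 at an unadjusted p under 0.05 and 0 in DESeq2 and limma. S100a8 reached at most 2 counts in any library. B cell genes summed to 1.54 to 3.15 TPM in Con and 1.06 to 1.19 TPM in EX, with 0 of 8 called in edgeR, DESeq2 and limma and 2 at an unadjusted p under 0.05. Cd79b, their most abundant member, had 4 to 14 counts per Con library and 4 to 7 per EX library. NK cell genes summed to at most 0.53 TPM, with 0 of 6 called in the same tools and 1 at an unadjusted p under 0.05. Klrk1 had 0 to 3 counts. Of 9 T cell genes 1 was called, Cd28, with 0.52 (adjusted p = 8.0e-04), while Cd3e reached at most 1 count, and 0 in each EX library. Of 8 dendritic cell genes 0 were called in edgeR or DESeq2, 1 in limma and 1 at an unadjusted p under 0.05, and Zbtb46 had a difference of -0.13. Of 8 osteoclast genes, 1 was higher, Ctsk, with 0.42, and DESeq2 and limma called 0. Of 6 erythroid genes, 1 was higher, Hba-a1, with 0.19, whose reads are shared with a near-identical copy. All 6 had a positive change, and 4 were at an unadjusted p under 0.05 in edgeR.

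The genes of mean FPKM of at least 1 whose CPM over the 6 libraries was most like the mean of the 10 genes were Ucp3 (Pearson r = 0.9977), Aimp2, C4b, Fmod, Cbr2, Capn1, Myod1, Ndufa11, Angptl7 and Gamt (r = 0.9932). The 6 libraries fall into the 2 groups, so the value follows the difference between Con and EX and is a description only. Of 10876 candidates, 249, or 2.29%, had r over 0.95. Ucp3 encodes a mitochondrial uncoupling protein, Fmod the matrix protein fibromodulin and Gamt an enzyme of creatine synthesis. The counts of C4b were not whole, as those of its near-identical copy C4a, and are uncertain.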

How the data were processed

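Total RNA from hind leg muscle of 3 Con and 3 EX mice, 1 library a mouse, was sequenced by the authors on the DNBseq platform with paired-end reads. Their methods name HISAT and GRCm39, while the submitters' processing notes list cutadapt, featureCounts, MultiQC and GRCm38.p6, with no tool versions, and how multiply mapped reads were counted is not given in the sources used here. The deposited table holds estimated counts per gene, of which 4.18% to 4.44% per library are not whole and were rounded here. It also holds the authors' FPKM values and the authors' TPM values, which were used as deposited for levels per length. The 6 columns of group means were not used.

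Counts were scaled by TMM and fitted with edgeR 4.0.16 (quasi-likelihood, legacy = TRUE) in R 4.3.3, over the 16716 genes with at least 1 count, with Benjamini-Hochberg adjustment and a threshold of 0.05. CPM were computed from TMM-scaled totals. A count of 0 allows a level of up to 3 counts, or 0.188 to 0.214 CPM, and such limits cover counting error only. With 3 mice against 3, an exact permutation test of a single value cannot go below p = 0.1, so none was run. Replicates are different mice. DESeq2 1.42.0 and limma 3.58.1 on log2(FPKM + 0.1) and log2(TPM + 0.1), other scalings, filters and left-out libraries were the alternatives, and the edgeR setting legacy = FALSE was added after seeing the data. The scripts were tested on simulated data. The 10 genes, the lists and the rule for named genes (all 10 genes, up to 4 called genes of each list with the largest change, the most abundant gene of a list with none called, both CSF1 receptor ligands and the 10 genes most like the members) were chosen with earlier results of these data known. Outside this rule, Mertk, Tlr4, C1ra, C1s1, C4a, Cd3e, Car3 and Fabp4 were chosen for mention after their values were seen. The values of 1 gene of the pan-macrophage list are not reported here. Promoter sequences came from RefSeq on GRCm38.p6.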

Additional observations from a re-analysis of the deposited data

How the results depend on the processing

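The log2 changes of C1qa, C1qb, C1qc, Csf1r and Lyz2 kept their direction and an adjusted p under 0.05 in all alternatives in which they could be computed. Mrc1 kept its direction and passed in 13 of 15, with an adjusted p of 0.052 in limma on log2(FPKM + 0.1) and 0.056 on log2(TPM + 0.1). The number of the 10 genes called between Con and EX ranged from 4 to 7. The common log2 factor was 0.87 over the 7 genes that averaged 1 FPKM or more and 0.92 over the 4 with at least 5 FPKM. It was 0.75 with limma on log2(FPKM + 0.1), 0.46 on log2(FPKM + 1), 0.73 on log2(TPM + 0.1), and 0.76 as an unweighted median. The number of genes called against the factor was 2 under either filter, and 2 to 4 when a library was left out, with 2 without Con replicate 2. Over the 4 genes of at least 5 FPKM, where only the C1q genes are left beside it, Lyz2 turned from 0.05 to -0.21 (adjusted p = 0.0087). Over all genes, DESeq2 called 1174 (628 higher, 546 lower), limma 1143 on log2(FPKM + 0.1) (365 higher), 1123 on log2(FPKM + 1) (364 higher) and, on log2(TPM + 0.1), 318 higher, against 2013 (1016 higher, 997 lower). With a library left out, the calls were 1125 to 1757 in all, 613 to 912 higher and 497 to 845 lower. The number of genes called over the 22 other lists was 65 and ranged from 44 to 72, with 1 to 8 pan-macrophage, 3 to 7 resident macrophage and 0 to 6 muscle fibre genes higher. The lists of CD14 partners, complement receptors, T cell and erythroid genes had 1 call each in edgeR, 1 in DESeq2 and 0 in limma. Totals without the 20 most abundant genes gave 38.9% of calls higher, against 50.5%.

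With the replicate number as a replicate block, edgeR called 1856 genes, with 6 of the 10 genes called between Con and EX and 4 against the factor, as without it, and it changed no other call of the 10 genes. Same-numbered mice did not deviate together (r of -0.093, -0.057 and -0.126), so the numbers name mice and do not pair them.

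Cd68, Adgre1 and Cd14 had 14 to 36 counts per library, so that counting error alone was 17.5% to 24.5% of their level, and the intervals of their departures from the factor were wide.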
